A study of Mus musculus with 7 samples.

Results

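The 6 genes described here are 2 small families of growth arrest genes: Gadd45a, Gadd45b and Gadd45g, and Btg1, Btg2 and Btg3. They were taken by name out of 21887 protein-coding genes with a span in RefSeq's table of GRCm38.p6, and every Fos peak with at least 1 base within 50 kb of a gene's span was assigned to that gene. The peaks come from chromatin immunoprecipitation and sequencing (ChIP-seq) with an anti-Fos monoclonal antibody on hippocampus of wild-type C57BL/6J mice aged 2 months. In the kainic acid group, 3 libraries, mice had 2 intraperitoneal injections of this glutamate receptor agonist at 10 mg/kg, 30 min apart, and only animals that reached seizure level 4 were used, 1 hour after the first injection. In the saline group, 3 libraries, mice received phosphate-buffered saline. No knockout or transgene was used. The labels do not give the number of animals behind a library, so spreads and p-values describe these libraries. The 1 input library, chromatin without antibody, was labelled saline and has no peak list here.

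Gadd45 proteins are small nuclear stress sensors that bind partners such as PCNA, the kinase Cdk1 with cyclin B1 and the kinase Map3k4. In neurons Gadd45b is known as an activity-induced gene linked to active DNA demethylation. Btg proteins slow proliferation, and Btg1 and Btg2 recruit the Cnot7 and Cnot8 deadenylases, which shorten the poly(A) tails of messenger RNAs. Fos pairs with Jun proteins to form AP-1, which binds the letters TGANTCA and, in some pairings, the cyclic AMP response element TGACGTCA.

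The lists held 15009, 63197 and 29650 peaks in kainic acid replicates 1, 2 and 3, and 7, 3277 and 2 peaks in saline replicates 1, 2 and 3. Absence from a list means that the authors' threshold was not passed, not that Fos was missing, and in saline only replicate 2 has a list long enough to hold sites near these genes. Peaks of the 6 lists that overlapped by at least 1 bp were joined into regions, and a region is called supported below when at least 2 of the 3 kainic acid lists had a peak in it. The fold of a peak is the authors' ratio over local background within 1 library. It was therefore only ranked within its own list, as a percentile with 0 at the highest fold. Equal percentiles in lists of such different lengths do not mean equal strength.

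Supported regions lay near all 6 genes, 24 in total of 26862 in the genome. There were 8 near Gadd45b, 5 near Btg2, 4 near Gadd45g, 3 near Btg1 and 2 each near Gadd45a and Btg3. Of all protein-coding genes, 62.7% had such a region within 50 kb, and 52.5% of the 11003 genes no longer than Btg3, the longest of the 6 at 17322 bp. Each of the 6 genes also had at least 1 region called in all 3 kainic acid lists, 10 in total, where 42.5% of protein-coding genes had one. Of the 24 supported regions 1 had a saline peak, as did 2.01% of the 26862, a share that the short saline lists and the choice of regions by kainic acid lists keep low. Its saline list was that of replicate 2, and it lay upstream of Gadd45b.

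Sequences at 3 start sites, those of Btg2, Gadd45g and a noncoding gene inside the span of Gadd45a, are printed below. They are RefSeq windows of GRCm38.p6 that run from 250 bases before a transcription start to 50 after it, printed 5′ to 3′ on the gene's strand. The first belongs to E230016M11Rik, a noncoding gene on the plus strand that starts inside the span of the minus-strand gene Gadd45a (chr6:67036349-67036648). It is shown because peaks of kainic acid replicates 2 and 3 covered all 300 of its bases. Capitals mark its AP-1 letters. The second belongs to Btg2 (chr1:134079106-134079405, minus strand), where capitals mark the cyclic AMP response element letters. The third belongs to Gadd45g (chr13:51846425-51846724, plus strand), where capitals mark the 227 bases under peaks of both kainic acid replicates 2 and 3.

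E230016M11Rik: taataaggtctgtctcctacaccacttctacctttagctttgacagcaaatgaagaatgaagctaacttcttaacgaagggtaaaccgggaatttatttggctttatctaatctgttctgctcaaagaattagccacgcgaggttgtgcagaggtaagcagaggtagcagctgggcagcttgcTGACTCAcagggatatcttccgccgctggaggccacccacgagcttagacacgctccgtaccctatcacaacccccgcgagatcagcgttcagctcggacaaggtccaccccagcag
Btg2: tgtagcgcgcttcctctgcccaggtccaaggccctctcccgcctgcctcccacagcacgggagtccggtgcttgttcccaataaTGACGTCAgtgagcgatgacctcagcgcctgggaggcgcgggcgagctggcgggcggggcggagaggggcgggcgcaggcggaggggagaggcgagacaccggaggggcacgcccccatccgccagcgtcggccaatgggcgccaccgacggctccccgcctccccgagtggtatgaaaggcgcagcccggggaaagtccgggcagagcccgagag
Gadd45g: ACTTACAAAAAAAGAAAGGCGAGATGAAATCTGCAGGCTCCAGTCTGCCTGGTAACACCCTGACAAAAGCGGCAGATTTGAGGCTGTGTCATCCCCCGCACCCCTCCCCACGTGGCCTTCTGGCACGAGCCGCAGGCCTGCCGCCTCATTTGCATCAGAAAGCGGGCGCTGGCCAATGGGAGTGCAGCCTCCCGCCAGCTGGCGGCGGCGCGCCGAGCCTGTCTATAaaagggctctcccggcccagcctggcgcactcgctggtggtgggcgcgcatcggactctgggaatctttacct

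TGANTCA, searched on both strands, was found in none of the 7 start windows of the 6 genes (Btg3 has 2), and in 6.99% of 21263 start windows of protein-coding genes. Among the 1096 of those windows under a supported region, 20.3% held it. In the E230016M11Rik window the letters were TGACTCA, at chromosome 6, 67036532 to 67036538. They lay 36 bp from the peak summit in kainic acid replicate 2 and 32 bp from that in replicate 3. TGACGTCA was found in 1 of the 7 windows, that of Btg2, beginning 166 bases before the start (chromosome 1, 134079314 to 134079321), against 2.23% of all windows. A peak of kainic acid replicate 2 alone covered it, with a summit 141 bp away. These matches are letters in a window and say nothing on binding by themselves. The start windows of 2 of the 6 genes, Gadd45b and Gadd45g, touched a supported region, against 5.55% of 17492 protein-coding genes with a start window. For Gadd45b only the peak of kainic acid replicate 2 reached the window, over its last 46 bases.

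**Figure D1:**
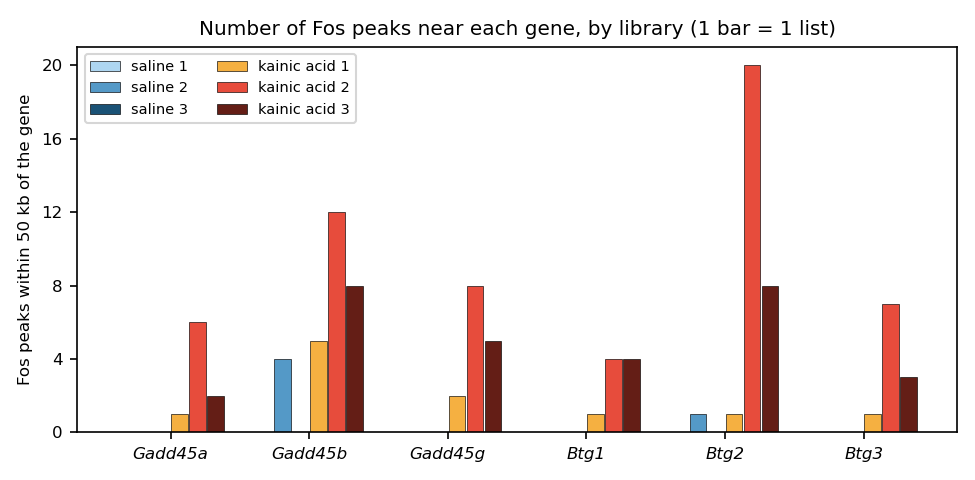
Number of Fos peaks within 50 kb of each gene (vertical axis) in each of the 6 lists, 1 bar per library, with no bar where the number is 0. Kainic acid replicate 2 had the most peaks or tied for the most at each gene, up to 20 at Btg2. Saline peaks appear at Gadd45b (4) and Btg2 (1), both in replicate 2.

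The first comparison was of peak numbers between kainic acid and saline at each gene. At 5 of the 6 genes every kainic acid list had more peaks than every saline list, as did 33.5% of protein-coding genes. The exception was Btg2. A saline peak lay within 50 kb of 2 of the 6 genes and of 30.2% of protein-coding genes.

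Gadd45a, the p53-responsive founder of its family, had 1, 6 and 2 peaks in kainic acid replicates 1, 2 and 3 and none in any saline list. The mean was 3 ± 2.65 (SD, n = 3) against 0. Gadd45b had 5, 12 and 8 peaks with kainic acid and 0, 4 and 0 with saline, means of 8.33 ± 3.51 and 1.33 ± 2.31 (SD, n = 3 each). Here the lowest kainic acid number, 5, was next to the highest saline number, 4. Gadd45g had 2, 8 and 5 peaks with kainic acid, a mean of 5 ± 3 (SD, n = 3), and none with saline. Among the Btg genes, Btg1 had 1, 4 and 4 peaks with kainic acid, 3 ± 1.73 (SD, n = 3), and none with saline.

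Btg3 had 1, 7 and 3 peaks with kainic acid, 3.67 ± 3.06 (SD, n = 3), and none with saline. For Gadd45a, Gadd45b, Gadd45g, Btg1 and Btg3 the two-sided exact permutation test of the difference in means gave p = 0.1, which with 3 libraries a group is the lower limit. Btg2 had 1, 20 and 8 peaks with kainic acid, 9.67 ± 9.61 (SD, n = 3), and 0, 1 and 0 with saline, 0.333 ± 0.577 (SD, n = 3). The groups touched at 1 peak, and the exact permutation p was 0.2. With so few libraries none of the 6 differences could have passed the usual threshold, whatever its size.

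List length moved these numbers. When each kainic acid list was shortened to its best 15009 peaks by p-value, Btg2 kept 1 peak in each of the 3 kainic acid lists, and its difference from saline went from 9.33 to 0.667. Those of Gadd45a, Gadd45g, Btg1 and Btg3 went to 1.67, 2.67, 1.33 and 1.33. Gadd45b then had 5, 4 and 5 peaks, a difference of 3.33 in place of 7. It no longer had more in every kainic acid list than in saline replicate 2. Without kainic acid replicate 2 the differences were 1.5 for Gadd45a, 2 for Btg3 and 4.17 for Btg2. Even the shortened kainic acid lists were longer than that of saline replicate 2. As a share of the full list, Gadd45b had more peaks in saline replicate 2 than in any kainic acid list. It had 4 of 3277, against 5 of 15009, 12 of 63197 and 8 of 29650 in kainic acid replicates 1, 2 and 3. For Btg2 the saline replicate 2 share, 1 of 3277, lay between those of kainic acid replicates 2 and 3. Gadd45a, Gadd45g, Btg1 and Btg3 had no saline peak.

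**Figure D2:**
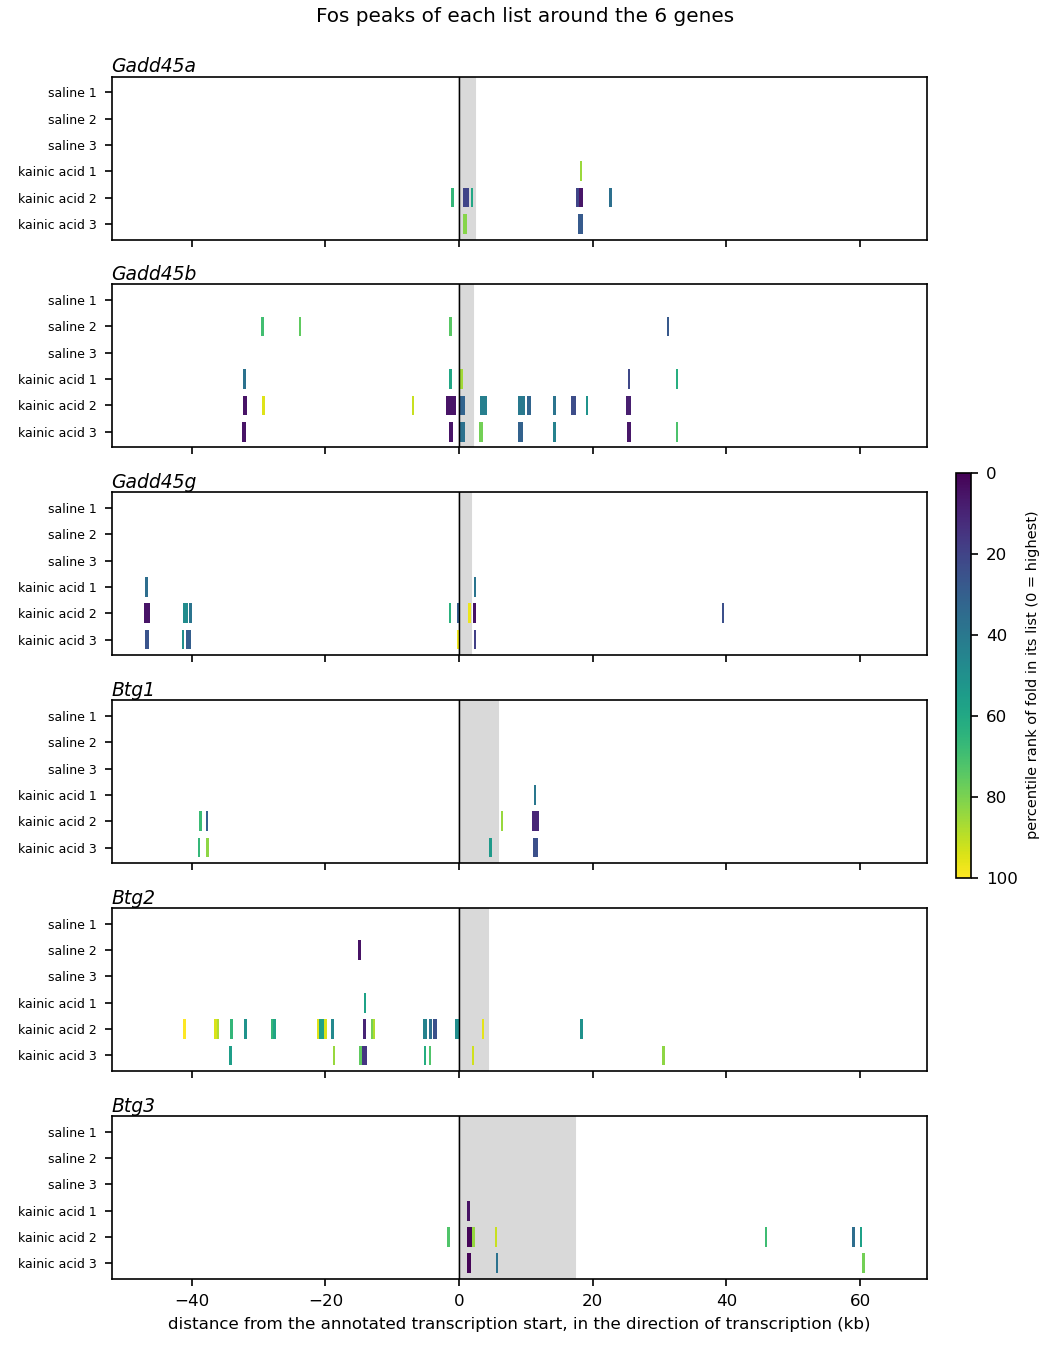
Position of each Fos peak relative to the annotated transcription start of the gene (horizontal axis in kb, negative values upstream), 1 row per list. The grey band is the gene's span, narrow peaks are widened so that they can be seen, and the colour gives the percentile rank of the fold in its list, dark for the highest folds. The dark peaks in all 3 kainic acid rows lie just inside Btg3, while Btg2 shows many light peaks in kainic acid replicate 2 alone.

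The regions themselves were then described gene by gene, with positions on GRCm38 and distances from the annotated start to the peak summits. The gene table has no exons, so a position inside a gene cannot be called exonic or intronic here. Reads over a summit were recovered from the authors' fold and p-value.

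The highest-ranked region of all 24 lay inside Btg3, whose protein is an antiproliferative factor of the same family. It spanned chromosome 16, 78375262 to 78375980, with summits 1.47 to 1.49 kb downstream of the distal start. The 3 summits fell within 18 bp. The fold was 7.96, 14.8 and 11.8 in kainic acid replicates 1, 2 and 3, which were ranks 755, 838 and 244 and percentiles 5.03, 1.33 and 0.823. The summits had 39, 63 and 68 reads over backgrounds of 4.02, 3.32 and 4.87. Among all protein-coding genes, including those without a supported region, 3.06% had a strongest supported region with as low a mean percentile (2.39 for Btg3). Neither start window of Btg3 was under a peak. The other supported region of Btg3, at 78371303 to 78371820, had summits 5.49 to 5.69 kb downstream of that start. It was called in replicates 2 and 3 with percentiles of 91.5 and 37.5, so both regions of this gene lay inside its span and far apart in rank.

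Gadd45b had the most supported regions of the 6 genes, and 4.4% of protein-coding genes had as many (0.963% of those no longer than Btg3). Its upstream region, chromosome 10, 80928121 to 80929593, had summits 1.25 to 1.27 kb before the start and was called in all 3 kainic acid lists. The fold there was 4.11, 10.1 and 7.69, with percentiles of 59.4, 5.26 and 5.45 and with 39, 76 and 87 reads over the summit. Saline replicate 2 had a peak in the same place, 80928716 to 80928931, with a fold of 3.67 at percentile 74.1 and 26 reads. This was the only supported region near any of the 6 genes that a saline list shared. It ranked in the lower part of both the saline list and the kainic acid replicate 1 list, and near the top in the other kainic acid lists.

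The next region covered the first part of Gadd45b itself, chromosome 10, 80930095 to 80931007, with summits 0.414 to 0.434 kb after the start. All 3 kainic acid lists called it, with percentiles of 86.0, 32.0 and 37.4, so it was the weaker of this pair by rank in each list. No saline list had a peak in it.

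By mean percentile the first region near Gadd45b was 25.4 to 25.5 kb downstream, at chromosome 10, 80955047 to 80955811. Its fold was 5.52, 8.64 and 7.55, with percentiles of 21.8, 8.45 and 5.86. It lay inside Gng7, a G protein subunit gene. Its place rested on replicate 1, since in replicates 2 and 3 both the upstream region above and the one in Tmprss9 ranked higher by fold. By −log10 q the region upstream of Gadd45b was higher in all 3 lists (10.3, 48.5 and 44.4 against 8.68, 19.5 and 19.7). The Tmprss9 region, inside that protease gene at 80897593 to 80898431, was 32.0 to 32.1 kb upstream. Its fold was 4.79, 10.1 and 7.83, with percentiles of 37.8, 5.22 and 5.12. The other 4 supported regions of Gadd45b were in 2 lists each, with mean percentiles of 35.6 to 67.2. Of the 8, 4 had Gadd45b as the nearest protein-coding gene and 4 had another gene.

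The other 3 saline replicate 2 peaks near Gadd45b were at no supported region. That at 80900595 to 80900802 lay inside Timm13, a mitochondrial import gene, and met a peak of kainic acid replicate 2 alone. That at 80906168 to 80906429 touched a start window of Lmnb2, a nuclear lamin gene, and had no kainic acid peak. The fourth, at 80961264 to 80961465, had none either.

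Gadd45g, the third member of its family, had 4 supported regions, a number that 18.8% of protein-coding genes reached. The best ranked one began 335 bp past the gene's end, at chromosome 13, 51848810 to 51849276, with summits 2.33 to 2.43 kb after the start. Its fold was 4.77, 10.4 and 5.53, with percentiles of 38.3, 4.72 and 18.8. The region over the start site, 51846333 to 51846775, had summits 0.156 to 0.17 kb upstream, inside the capitals printed above. It was called in kainic acid replicates 2 and 3 with a fold of 5.55 and 2.58. The percentiles were 28.6 and 97.3, so in replicate 3 it was among the weakest peaks of the list. Peaks here had 46 and 31 reads over local backgrounds of 7.47 and 11.4. The other 2 regions lay 40.2 to 46.8 kb upstream and were nearer to Sema4d, a semaphorin gene. One of them, 51799519 to 51800481, was in all 3 lists with a fold of 4.8, 9.99 and 4.97 and percentiles of 35.9, 5.31 and 26.0. The other, 51805276 to 51806667, was in replicates 2 and 3 with a fold of 4.86 and 4.77 and percentiles of 38.3 and 29.3.

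Gadd45a had 2 supported regions. The one inside its span, chromosome 6, 67035967 to 67036834, had summits 0.836 to 0.84 kb after the Gadd45a start, only 4 bp apart in the 2 lists. It is the region that holds the start of E230016M11Rik and the TGACTCA printed above. Its fold was 6.28 in kainic acid replicate 2 and 3.25 in replicate 3, with percentiles of 20.5 and 81.9 and with 47 and 30 reads. Replicate 1 had no peak there. The region in all 3 lists, 67018859 to 67019824, lay 15272 bp past the end of Gadd45a and inside Gng12, another G protein subunit gene. Its fold was 3.46, 9.78 and 4.85, with percentiles of 85.0, 5.71 and 28.3. The Gadd45a start window itself was under no peak.

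Btg1, which has no other protein-coding gene within 50 kb, had 3 supported regions, all nearest to Btg1. The only one in all 3 lists lay 5155 bp past its end, at chromosome 10, 96627968 to 96628969, with summits 11.3 to 11.6 kb from the start. Its fold was 4.67, 7.96 and 5.08, with percentiles of 39.8, 10.9 and 24.5. The other 2 lay 37.7 to 38.9 kb upstream, at 96577912 to 96578487 and 96579143 to 96579530, and were in kainic acid replicates 2 and 3. The first of these had a fold of 3.83 and 3.58 and percentiles of 68.2 and 66.6. The second had a fold of 5.4 and 3.18 and percentiles of 29.7 and 83.1. Both lay inside the span of the noncoding gene Gm33843. No supported region touched the Btg1 span or its start window, although the window holds the half-site letters CGTCA at 2 places, as do 23.6% of all windows in at least 1 place. These half-site letters were chosen after the sequences were seen.

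Btg2, a p53 target and immediate early gene, had 23 regions in all. Of these, 18 were in 1 kainic acid list, 15 of them in replicate 2, which has the longest list. Of the 5 supported regions, 3 had Btg2 as the nearest gene, all upstream. The one in all 3 lists, chromosome 1, 134093008 to 134093620, had summits 14.0 to 14.1 kb upstream. Its fold was 4.17, 8.26 and 5.87, with percentiles of 57.7, 9.85 and 15.4 and with 36, 69 and 59 reads over the summit. It lay inside the noncoding gene Gm32039. The next by mean percentile, 134083985 to 134084487 and 134083206 to 134083730, lay 4.24 to 5.08 kb upstream inside the noncoding gene Gm31974, and were absent from the replicate 1 list. The fold was 4.59 and 3.73 in replicates 2 and 3 for the former and 5.05 and 3.46 for the latter. Their percentiles were 44.2 and 61.9 for the former and 36.0 and 72.6 for the latter. The remaining 2, 18.6 to 34.3 kb upstream, were nearer to Chit1, a chitinase gene. The Btg2 span held no supported region. The saline replicate 2 peak near Btg2, at 134093925 to 134094211, lay beside the strongest region without overlapping it. It ranked at percentile 4.85 of its list and met a peak of kainic acid replicate 3 alone, at percentile 75.4.

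Across the 24 supported regions, the mean percentile over the lists that called them ran from 2.39 to 67.4 with a median of 46.2. Kainic acid replicate 3 called all 24, replicate 2 called 23 and replicate 1 called 11, where over all supported regions the shares were 94.2%, 99.1% and 51.1%. Of the 37 regions in 1 kainic acid list, 32 were in replicate 2, 5 in replicate 3 and 0 in replicate 1. Replicate 2 has by far the longest list (63197 peaks), and the same split over the genome is not given here. The nearest protein-coding gene was the named gene for 15 of the 24, 12 lay within 10 kb of it and 5 touched its span. Over all pairs of a protein-coding gene no longer than Btg3 and a supported region within 50 kb, these shares were 22.2%, 29.0% and 10.2%. Over pairs with genes of any length they were 51.3%, 53% and 40.3%. In the 10 regions of all 3 lists the summits spread over 18 to 262 bp with a median of 83.5 bp, beside a median of 122 bp over the 11937 such regions of the genome. In the 14 regions of exactly 2 lists the spread was 4 to 916 bp with a median of 91.5 bp. The median was 91 bp over all 14925 of that kind. The widest spread was at a Gadd45b region, 80933072 to 80934242.

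**Figure D3:**
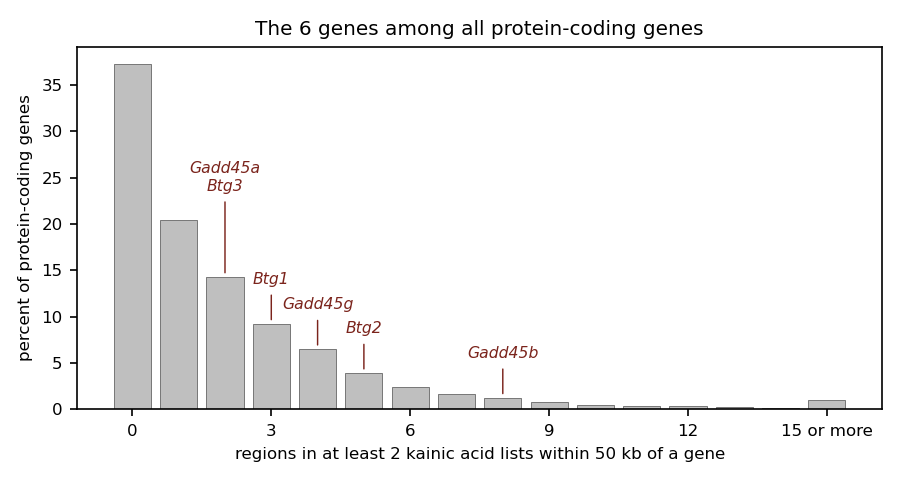
Percent of protein-coding genes (vertical axis) by the number of supported regions within 50 kb (horizontal axis), with the 6 genes marked above their bars. The median gene had 1 region. All 6 genes lie above it, Gadd45b the farthest with 8. At least as many regions as at Gadd45a and Btg3 were found at 42.3% of protein-coding genes. The shares for Btg1 and Btg2 were 28% and 12.3%.

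The order of the genes depended on the measure. By number of supported regions it was Gadd45b, Btg2, Gadd45g, Btg1, then Gadd45a and Btg3 with the same number. By mean percentile of the strongest region it was Btg3 (2.39), Gadd45b (12), Gadd45g (20.6), Btg1 (25.1), Btg2 (27.6) and Gadd45a (39.7). The median over protein-coding genes with a region was 24.8. In the same order, 3.06%, 15.2%, 26.5%, 31.8%, 34.2% and 45.3% of all protein-coding genes, with or without a region, had as low a value. In this order the 3 percentiles of Btg3 (0.823 to 5.03) did not overlap those of Gadd45b (5.86 to 21.8). Each later pair of neighbours overlapped in range, as Gadd45b did with Gadd45g (4.72 to 38.3). List by list, Gadd45g (38.3, 4.72 and 18.8) was ahead of Btg1 (39.8, 10.9 and 24.5) in every kainic acid list. The other later neighbours changed order between lists.

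Genes with the same peak number in each of the 6 lists were looked for on other chromosomes, as a measure of likeness. Gadd45a shared its numbers with 72 protein-coding genes, of which Rpusd4 was closest in the mean percentile of its strongest region (39.7). Btg3 shared them with 53 (closest Dtx2, 6.59), Gadd45g with 20 (closest Tph1, 20.8) and Btg1 also with 20 (closest Hopx, 29.1). Btg2 shared them with 1, Cdh4, whose strongest region had 7.81. Gadd45b shared them with 0.

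Other genes of the same pathways were counted from lists of 50 genes. A supported region lay within 50 kb of 40 of them, where 62.7% of all protein-coding genes had one, and a region in all 3 lists near 27, where 42.5% had one. All 3 other members of the Btg family had a supported region, the most at Tob2, an antiproliferative gene, with 3. Of the 9 genes of the deadenylase complex and its partners, 8 had one. There Cnot1, the scaffold subunit gene, and Cnot2, another subunit gene, shared the most (4 each), and Cnot3 had none. Of the 15 genes of p53 and cell cycle arrest, 12 had one, with 3 each at Pcna, the replication clamp gene, and Sesn1, a p53 target, and none at Cdk1.

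Of the 7 stress kinase partners of Gadd45, 6 had a supported region, with 12 at Map2k4, a kinase that activates JNK, and none at Map2k7. For the 9 DNA demethylation and repair genes it was 6, with 13 at Tet3, a 5-methylcytosine oxidase gene. For the 7 other damage-inducible or growth arrest genes it was 5, with 16 at Gas7 and none at Gas1. Their spans run from 2096 bp at Ddit4 to 235736 bp at Gas7, and a longer span makes a wider window. The shares of these last 3 lists stand beside the 62.7% of all protein-coding genes, and 6 of 9 and 5 of 7 are near it.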

How the data were processed

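Per the submitters' processing notes, the authors used Trim Galore 0.6.4, Bowtie2 2.3.4.3, MACS2 and deepTools 3.5.0 with build mm10, which is GRCm38. The peak names in the deposited lists carry a mapping quality of 30. Neither the threshold for calling peaks nor the control they were called against is stated in the sources used here. The lowest −log10 q was 1.38, 1.35 and 1.35 in kainic acid replicates 1, 2 and 3 and 1.35 in saline replicate 2. Each library has its own list with 10 columns. The deposited score is 10 times the −log10 q rounded down. The authors' fold is a linear ratio over local background, and the deposited −log10 p or −log10 q was computed within its library, with nothing scaled across libraries. The deposited summit offset gave the summits.

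Peaks were counted within 50 kb of gene spans and merged with Python 3.11.15, pandas 2.3.3 and numpy 2.4.6. Exact permutation tests ran over all 20 assignments of libraries. Reads over a summit (k) and background (λ) were solved with scipy 1.17.1 from fold = (k + 1)/(λ + 1) and a Poisson p. The tolerance was 0.001 in −log10 p, widened in proportion where −log10 p was above 50. A solution was found for 103 of 103 peaks near the 6 genes and is an inferred model, not a deposited read count. No read totals were used, so depth per library is unknown. Counting, merging and solving were tested on simulated data. The solving test checked only the reads over a summit, with backgrounds below the highest solved here (11.4). Simulated regions stood apart, so the joining of several peaks of the same list into a region was not tested. Genes, start sites and sequences are RefSeq's (GRCm38.p6), and all 6 genes and 50 pathway genes matched by symbol. No genome sequence was used, so motifs were searched in start windows only and not around other summits.

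The genes and lists were chosen with earlier results of these data known. Up to 3 supported regions per gene, by mean percentile, are given singly. From each pathway list the gene with the most regions (ties by best mean percentile, with 2 tied genes, Cnot1 and Sesn1, added) and the alphabetically first gene without one are named, except that 1 gene is not reported here. The regions at the starts of Gadd45b and Gadd45g beyond those 3 are given too, chosen after their values were seen.

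Replicate numbers 1 to 3 occur in both groups. Over all protein-coding genes, deviations of peak numbers correlated at 0.275, 0.286 and 0.197 for numbers 1, 2 and 3. Kainic acid replicate 1 correlated as much with saline replicate 3 (0.278), since saline replicates 1 and 3 are nearly empty. The check therefore cannot tell whether numbers pair the libraries.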

Additional observations from a re-analysis of the deposited data

How the results depend on the processing

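The total of 24 supported regions fell to 12 with a reach of 10 kb and rose to 41 with 100 kb. A minimum −log10 q of 5 left 15 and one of 10 left 8. The total was 10 when all 3 kainic acid lists were required, 61 when 1 list was enough and 10 with kainic acid lists of equal length. Peaks joined only by an overlap of at least 50% of the shorter peak gave 23, and by summits within 200 bp 20. Under the summit rule Gadd45b had 6 supported regions and Btg2 3. Under the overlap rule Btg3 had 1, Btg2 4 and Gadd45g 5. Leave-one-out totals were 10 without replicate 3, 11 without replicate 2 and 23 without replicate 1. Each leaves 1 pair of lists, and the totals of 10 and 11 come from pairs that hold replicate 1, the shortest kainic acid list. Of 78 alternative counts for single genes, 51 moved by over 1.5 times, 42 to fewer and 9 to more. At that minimum of 10, Gadd45a had 0 supported regions and the other 5 genes kept at least 1. All 6 genes had a supported region at each reach tried, while the share of protein-coding genes was 40.0%, 51.0% and 74.7% at 10, 25 and 100 kb, and 52.5% at 50 kb among genes no longer than Btg3.

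The difference in peak numbers was positive for each of the 6 genes under every alternative run, and its exact p was never below 0.1. Neither the sign nor these p-values say anything about stability. Saline replicates 1 and 3 have lists of 7 and 2 peaks, and no alternative shortened the kainic acid lists to saline lengths. A negative difference was therefore hardly possible. With the replicate block the differences were the same, 3, 7, 5, 3, 9.33 and 3.67 for Gadd45a, Gadd45b, Gadd45g, Btg1, Btg2 and Btg3, each with an exact permutation p of 0.25 (signs of pairs flipped), the lower limit for 3 pairs. With or without the block no difference could pass the usual threshold, so the block could change no call. The mean percentile of the strongest region of Btg3 stayed between 1.07 and 3.76, the lowest of the 6 genes in each of the 5 alternatives, and that of Gadd45a ran from 17.0 without replicate 1 to 56.7 without replicate 2. Without replicate 1 it was also 5.17 for Gadd45b, 11.7 for Gadd45g and 12.6 for Btg2, each over 1.5 times lower. For Gadd45b the strongest region was then the one in Tmprss9 (percentiles 5.22 and 5.12) in place of the one in Gng7. Ranked by −log10 q, Btg2 went from 27.6 to 11.4.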
